A study of Homo sapiens with 4 samples.

Results

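Eph receptors and ephrins were described in SAS cells, a human oral squamous cell carcinoma line, with and without an shRNA against STAU1. The 10 genes, the receptors EPHA1, EPHA2, EPHA4, EPHB2, EPHB3 and EPHB4 and the ligands EFNA1, EFNA5, EFNB1 and EFNB2, were chosen by name and matched by Ensembl gene identifier to a table of 66963 genes. All 10 were in the table, and 9 of them passed the filter on low counts that left 14303 genes for the test.

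The study examined STAU1, an RNA-binding protein known for the transport and decay of mRNAs, and the deposited libraries compare gene expression between control and knockdown cells. The control cells, named Ctrl, carried an shRNA against luciferase (shLuc), which SAS cells do not encode, and the knockdown cells, named shSTAU1, carried an shRNA against STAU1. All cells of both groups are labelled as wild-type in genotype and as virus-infected, each group has 2 libraries, and 1 shRNA stands for each group. The sources used here do not say whether the 2 libraries of a group came from separate cultures, so the p-values measure the spread between these libraries, which may be technical.

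Totals per library ran from 32206655 to 36301574 counts. The targeted gene was checked first. STAU1 was at 249.8 ± 1.65 CPM (counts per 1000000 after TMM scaling, mean ± SD, n = 2) in Ctrl and at 41.6 ± 0.078 CPM in shSTAU1, or 16.6% of the Ctrl level (log2 fold change −2.59, SE 0.13, adjusted p = 0.00103 by edgeR's quasi-likelihood test with Benjamini-Hochberg adjustment). The sample labels name the mouse fibroblast line C3H 10T1/2 beside a human organism and a growth protocol for SAS cells. All 12 epithelial markers passed the filter, with a summed level of 17415 to 19338 CPM in Ctrl and 17723 to 21396 CPM in shSTAU1. Of 10 fibroblast markers 5 passed the filter, THY1 and POSTN were at 0 in all libraries, and the summed level was 27.8 to 35.4 CPM in Ctrl and 23.4 to 28.8 CPM in shSTAU1. By edgeR at an adjusted p under 0.05, 3 of the 12 epithelial markers were called, against 2.6% of all tested genes. SFN (log2 fold change 1.43) and KRT5 (0.65) rose and LAMB3 (−0.84) fell. Of the 5 tested fibroblast markers 1 was called, COL1A1 (−1.35), which fell. The epithelial KRT14 (0.89, adjusted p = 0.112 by edgeR) had both shSTAU1 libraries above both Ctrl libraries. So did the fibroblast markers COL1A2 (log2 fold change 1.01, adjusted p = 0.185 by edgeR) and FBN1 (0.46, adjusted p = 0.268). Any part of these changes in the values of the Eph and ephrin genes was not tested.

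Eph receptors are the largest family of receptor tyrosine kinases, and their ligands, the ephrins, sit in the membrane of the neighbouring cell. Ephrin-A ligands are held by a lipid anchor and bind mainly EphA receptors, while ephrin-B ligands span the membrane and bind mainly EphB receptors, with EphA4 accepting both classes. Contact starts forward signalling in the cell with the receptor and reverse signalling in the cell with the ligand, and in squamous epithelia the system is known for keeping cell compartments apart, for cell adhesion and repulsion, and for its altered levels in carcinoma.

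The receptor transcripts counted in these cells were mostly EPHA2, EPHB2 and EPHB4, and the ligand transcripts counted were mostly EFNA1 and EFNB1. None of these 5 differed between the groups at an adjusted p under 0.05 by edgeR without a replicate term. The members with the lowest shSTAU1 levels relative to Ctrl were 2 scarce transcripts, the ligand EFNB2 at 30.6% and the receptor EPHA4 at 43.3% of the Ctrl mean, and neither passed the adjusted threshold in that test. By edgeR's quasi-likelihood test 0 of the 9 tested members were called at an adjusted p under 0.05, against 2.6% of all tested genes (372 of 14303, 161 higher and 211 lower in shSTAU1). That split was 132 higher and 272 lower under library-size scaling, and 773 higher and 676 lower by DESeq2. At an unadjusted p under 0.05 there were 3 members, EPHA2, EPHA4 and EFNB2, all lower in shSTAU1, against 24.5% of all tested genes (1850 higher and 1659 lower). DESeq2 called 1 member, EPHA4, against 10.1% of all tested genes, and limma-voom called 0, against 2.54%, with the same 3 members at an unadjusted p under 0.05 in both. In 4 of the 9 members, EPHA2, EPHA4, EPHB3 and EFNB2, both shSTAU1 libraries were below both Ctrl libraries, against 28.0% of all tested genes, and 0 members had both shSTAU1 libraries above both Ctrl libraries, against 28.5%. The median log2 fold change of the 9 members was −0.26, with 4 above 0 and 5 below, and that of all tested genes was 0.01. In bulk libraries, fewer cells that carry a transcript and less of it per cell cannot be told apart.

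**Figure D1:**
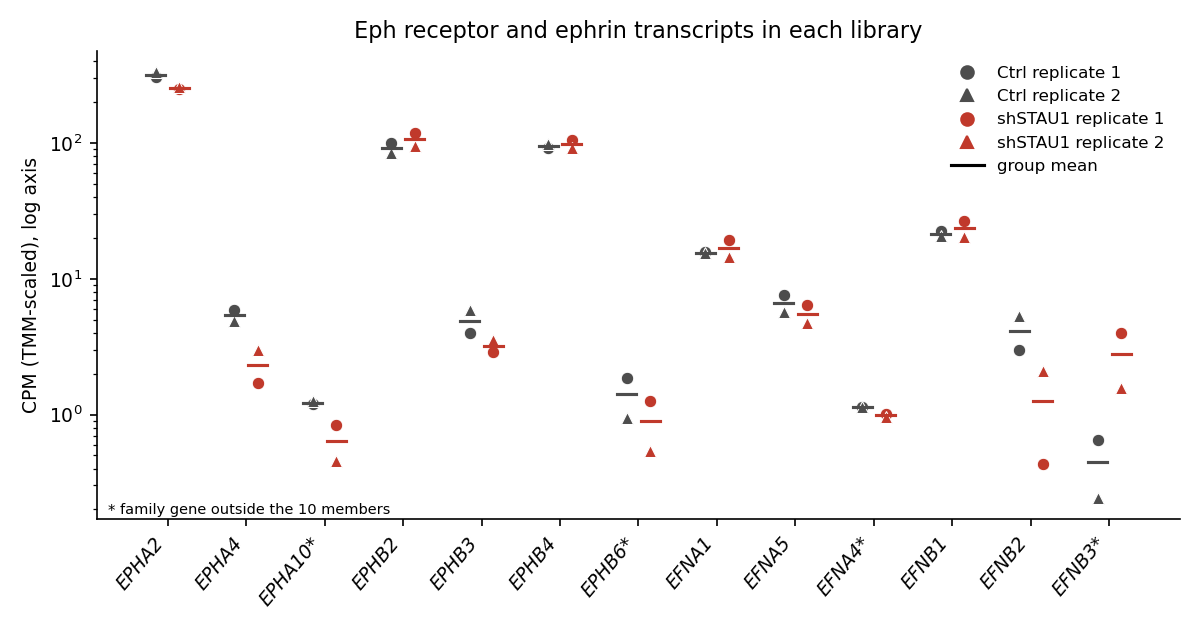
TMM-scaled CPM of each tested Eph and ephrin gene in each library, on a log axis, with circles and triangles for replicates 1 and 2, grey for Ctrl, red for shSTAU1 and lines for group means. The shSTAU1 points lie below both Ctrl points for the members EPHA2, EPHA4, EPHB3 and EFNB2 and, among the starred genes outside the 10, for EPHA10 and EFNA4, and above them for EFNB3.

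Levels of different genes were compared in CPM per kb of the annotated transcript. EPHA2 led in Ctrl at 80.6 ± 5.16, followed by EPHB2 at 25.0 ± 3.15 and EPHB4 at 21.9 ± 1.05, in CPM per kb (mean ± SD, n = 2). The ligands EFNA1 and EFNB1 came next at 8.08 ± 0.102 and 6.50 ± 0.347 CPM per kb. EFNA5 (1.25 ± 0.24), EPHB3 (1.16 ± 0.314), EPHA4 (0.849 ± 0.105) and EFNB2 (0.827 ± 0.327) formed the low end of the members, where neighbours in this order lay within about 1 SD of each other. Per kb of coding length EFNA5 stood above the other 3 at 9.72 CPM per coding kb, followed by EFNB2 at 4.13, EPHA4 at 1.82 and EPHB3 at 1.64, so this order depends on the length used. The means of EPHB2 and EPHB4 were also closer than the SD of EPHB2, and their order was not the same in all libraries per kb of coding length, where the ratio of EPHB2 to EPHB4 was 1.09 and 0.855 in Ctrl and 1.13 and 1.03 in shSTAU1. The libraries were made with an exome capture kit, so a level also depends on how well probes caught each transcript, which was not analysed here.

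Of the counted receptor signal per kb of transcript, EPHA2, EPHB2 and EPHB4 made up 98.0% in both Ctrl libraries and 98.8% and 98.6% in the shSTAU1 libraries. EPHA1, EPHA3, EPHA7 and EPHA8, listed at 0 counts in all libraries, entered this and the sums below as 0. Those zeros are not read as absence of the transcripts, so shares and ratios are of the counted signal only. EPHA2 alone made up 60.1% and 63.6% in Ctrl and 52.0% and 57.1% in shSTAU1, so both shSTAU1 shares were below both Ctrl shares. The summed EphA level was 78.1 and 85.2 CPM per kb in Ctrl and 63.1 and 65.5 in shSTAU1. The summed EphB level was 49.9 and 47.1 CPM per kb in Ctrl and 57.5 and 48.2 in shSTAU1. The EphA sums followed EPHA2, and the EphB sums of the groups overlapped. Summed receptors exceeded summed ligands 7.09- and 7.62-fold in Ctrl and 5.63- and 6.93-fold in shSTAU1 per kb of transcript, and 2.72- and 2.96-fold against 2.24- and 2.77-fold per kb of coding length, where the groups overlapped. With 2 libraries a group, an exact two-sided permutation test of any such sum cannot give a p below 0.333, so none was used.

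**Figure D2:**
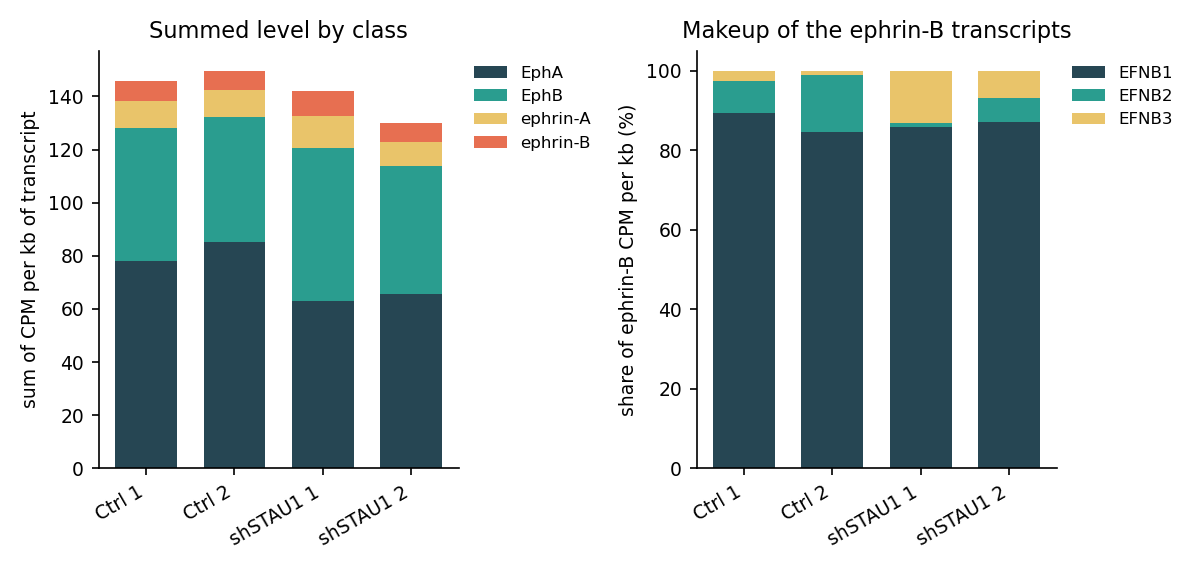
Left, the summed CPM per kb of transcript for EphA receptors, EphB receptors, ephrin-A and ephrin-B ligands in each library; right, the share of EFNB1, EFNB2 and EFNB3 in the ephrin-B sum in percent. EFNB1 holds 84.7% to 89.4% of the ephrin-B sum in every library, while EFNB2 holds 7.89% and 14.3% in Ctrl and 0.916% and 5.98% in shSTAU1.

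EPHA2, a receptor abundant in squamous epithelium that binds EFNA1, is on chromosome 1 (chr1:16124337-16156087, minus strand, GRCh38, ENSG00000142627). It had 10255 and 10931 counts in Ctrl and 8647 and 9090 counts in shSTAU1, or 305 and 334 CPM against 248 and 257 CPM. Both shSTAU1 libraries were below both Ctrl libraries, at means of 252.8 ± 6.25 and 319 ± 20.4 CPM. The log2 fold change was −0.34 (SE 0.12, 95% interval −0.62 to −0.05, unadjusted p = 0.0262, adjusted p = 0.147 by edgeR), which put the shSTAU1 level at 79.1% of Ctrl.

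EPHA4, the receptor that binds ligands of both classes, is on chromosome 2 (chr2:221418027-221574202, minus strand, ENSG00000116106). It had 197 and 161 counts in Ctrl and 59 and 105 counts in shSTAU1, or 5.86 and 4.92 CPM against 1.69 and 2.97 CPM. The groups did not overlap, and shSTAU1 replicate 1 was the lowest library. The mean was 5.39 ± 0.665 CPM in Ctrl and 2.33 ± 0.903 CPM in shSTAU1, with a log2 fold change of −1.21 (SE 0.35, 95% interval −2.02 to −0.40, unadjusted p = 0.0092, adjusted p = 0.0924 by edgeR). DESeq2 gave an adjusted p of 0.0386, and over other scalings, filters and models without a replicate term the adjusted p ran from 0.0386 to 0.189. Without shSTAU1 replicate 2 the log2 fold change was −1.68, and without shSTAU1 replicate 1 it was −0.85. The size of the difference thus depends on which shSTAU1 library is used. Of its 7554 exonic bases, 353 overlap the antisense gene AC079834.2, which had 0 counts in all libraries.

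EPHA1, an epithelial EphA receptor on chromosome 7 (chr7:143390289-143408892, minus strand, ENSG00000146904), was listed at 0 counts in all 4 libraries and was not tested. The floor of 3 counts equals 0.0849 to 0.0916 CPM, for counting error only. ZYX, which codes for the broadly expressed focal adhesion protein zyxin and shares 82 exonic bases with EPHA1 on the opposite strand, was listed at 1 count over all 4 libraries, and HRAS, a broadly expressed GTPase on another chromosome, at 0. CASP2, another gene on the same stretch of chromosome 7, had 13160 counts over the 4 libraries. The 0 of EPHA1 is therefore given as a listed value and not as absence of the transcript, and its cause was not tested.

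The promoters of the 3 members with an unadjusted p under 0.05 by edgeR are shown, a threshold that 24.5% of all tested genes passed. Each sequence runs from 250 bases before to 50 bases after the transcription start (RefSeq, GRCh38.p14, on the gene's own strand), at chr1:16156020-16156319 for EPHA2, chr2:221574153-221574452 for EPHA4 and chr13:106535613-106535912 for EFNB2, all on the minus strand. Capitals mark the letters of the GC box (GGGCGG), of the TEAD motif (GGAATG) or of the TATA box (TATAAA), on either strand.
EPHA2: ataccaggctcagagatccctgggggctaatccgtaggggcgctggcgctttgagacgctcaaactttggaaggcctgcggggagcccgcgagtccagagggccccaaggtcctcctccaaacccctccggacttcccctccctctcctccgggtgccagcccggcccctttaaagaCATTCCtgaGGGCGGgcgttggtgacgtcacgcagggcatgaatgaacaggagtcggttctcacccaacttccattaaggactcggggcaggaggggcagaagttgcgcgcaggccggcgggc
EPHA4: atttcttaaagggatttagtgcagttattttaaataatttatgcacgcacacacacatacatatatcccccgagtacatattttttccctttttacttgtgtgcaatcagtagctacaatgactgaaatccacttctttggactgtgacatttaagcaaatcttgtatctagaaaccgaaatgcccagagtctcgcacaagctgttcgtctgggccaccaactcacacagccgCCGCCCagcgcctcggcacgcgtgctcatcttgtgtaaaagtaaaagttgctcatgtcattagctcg
EFNB2: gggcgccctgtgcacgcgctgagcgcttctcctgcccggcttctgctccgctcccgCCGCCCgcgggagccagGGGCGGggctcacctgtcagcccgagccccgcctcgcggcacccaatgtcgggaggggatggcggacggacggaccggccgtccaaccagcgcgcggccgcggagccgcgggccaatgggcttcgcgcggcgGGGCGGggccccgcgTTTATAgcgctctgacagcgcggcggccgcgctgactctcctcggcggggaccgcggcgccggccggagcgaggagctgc
The EPHA4 promoter had a GC content of 43.0%, the lowest of the 10 members, and those of EPHA2 and EFNB2 had 64.3% and 78.7%. The member median was 70.3%, with a highest value of 83.0%, against a median of 58.7% over 35116 promoters of the same length. A GC box was found in 10 of 10 member promoters (45.0% of all promoters), on either strand. The TEAD motif was in 1 of 10, EPHA2 (14.0% of all), and the TATA box in 1 of 10, EFNB2 (11.5% of all). The AP-1 motif, searched as TGANTCA, was in 0 of 10 (7.71% of all). No searched motif overlapped another in the 3 sequences shown, and a match of letters says nothing of factor binding.

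Among the EphB receptors, EPHB2 and EPHB4, the abundant ones, overlapped between the groups. EPHB3 was lower in both shSTAU1 libraries without passing the test. EPHB2, a receptor of ephrin-B ligands known for cell positioning in epithelia (chr1:22710839-22921500, plus strand), had 3372 and 2746 counts in Ctrl and 4138 and 3362 in shSTAU1. Its levels of 100.3 and 83.9 CPM in Ctrl and 119 and 95.1 CPM in shSTAU1 overlapped (log2 fold change 0.22, SE 0.16, 95% interval −0.16 to 0.60, adjusted p = 0.443 by edgeR).

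EPHB4, the main receptor of EFNB2 in blood vessels (chr7:100802565-100827521, minus strand), had 3082 and 3212 counts in Ctrl and 3647 and 3261 in shSTAU1. Its levels were 91.7 and 98.1 CPM in Ctrl and 105 and 92.3 CPM in shSTAU1, and the groups overlapped. The log2 fold change was 0.05 (SE 0.13, 95% interval −0.26 to 0.37, adjusted p = 0.836 by edgeR), an interval that leaves out a 1.5-fold difference in either direction. It shares 69 exonic bases with SLC12A9 on the opposite strand.

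EPHB3, a receptor of ephrin-B ligands (chr3:184561784-184582409, plus strand), was scarce, with 134 and 192 counts in Ctrl and 101 and 125 in shSTAU1. Its levels were 3.98 and 5.86 CPM in Ctrl and 2.90 and 3.54 CPM in shSTAU1, which did not overlap, and its shSTAU1 mean was 65.4% of the Ctrl mean. The log2 fold change of −0.61 (SE 0.31, 95% interval −1.34 to 0.11) had an unadjusted p of 0.0865 and an adjusted p of 0.267 by edgeR.

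The ephrin-A ligands EFNA1 and EFNA5 overlapped between the groups. EFNA1, a ligand of EPHA2 (chr1:155127460-155134857, plus strand), had 528 and 505 counts in Ctrl and 670 and 515 in shSTAU1, or 15.7 and 15.4 CPM against 19.2 and 14.6 CPM. The spread within shSTAU1 exceeded the difference between the groups (log2 fold change 0.12, SE 0.20, 95% interval −0.35 to 0.59, adjusted p = 0.747 by edgeR). EFNA5, a ligand of EphA receptors known from axon guidance (chr5:107376889-107670895, minus strand), had 254 and 188 counts in Ctrl and 222 and 166 in shSTAU1. Its levels were 7.55 and 5.74 CPM in Ctrl and 6.38 and 4.70 CPM in shSTAU1 (log2 fold change −0.26, SE 0.28, 95% interval −0.91 to 0.38, adjusted p = 0.588 by edgeR). Per kb of transcript, the ratio of EPHA2 to its ligand EFNA1 was 9.44 and 10.5 in Ctrl and 6.27 and 8.58 in shSTAU1.

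Of the ephrin-B ligands, EFNB1 was the abundant one and EFNB2 the one with the largest difference of all members. EFNB1, encoded on the X chromosome (chrX:68828997-68842147, plus strand), had 752 and 679 counts in Ctrl and 933 and 716 in shSTAU1, or 22.4 and 20.7 CPM against 26.8 and 20.3 CPM. The groups overlapped (log2 fold change 0.13, SE 0.19, 95% interval −0.32 to 0.57, adjusted p = 0.716 by edgeR).

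EFNB2, a ligand known from arteries and epithelial borders (chr13:106489731-106535662, minus strand, ENSG00000125266), had 100 and 173 counts in Ctrl and 15 and 74 counts in shSTAU1. Its levels were 2.97 and 5.28 CPM in Ctrl and 0.431 and 2.09 CPM in shSTAU1. Both shSTAU1 libraries were below both Ctrl libraries, and the spread within shSTAU1 was wide, with means of 4.13 ± 1.63 and 1.26 ± 1.18 CPM. The log2 fold change was −1.70 (SE 0.66, 95% interval −3.23 to −0.18, unadjusted p = 0.0331, adjusted p = 0.165 by edgeR). Without shSTAU1 replicate 2 it was −3.26 and without shSTAU1 replicate 1 it was −0.97, each from a lone shSTAU1 library. Over other scalings, filters and models without a replicate term the adjusted p ran from 0.0505 to 0.324. Of its 5019 exonic bases 1313 (26.2%) overlap the antisense gene AL138689.2, listed at 0 counts in all libraries, and without a stated strand setting reads from the 2 strands cannot be told apart.

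**Figure D3:**
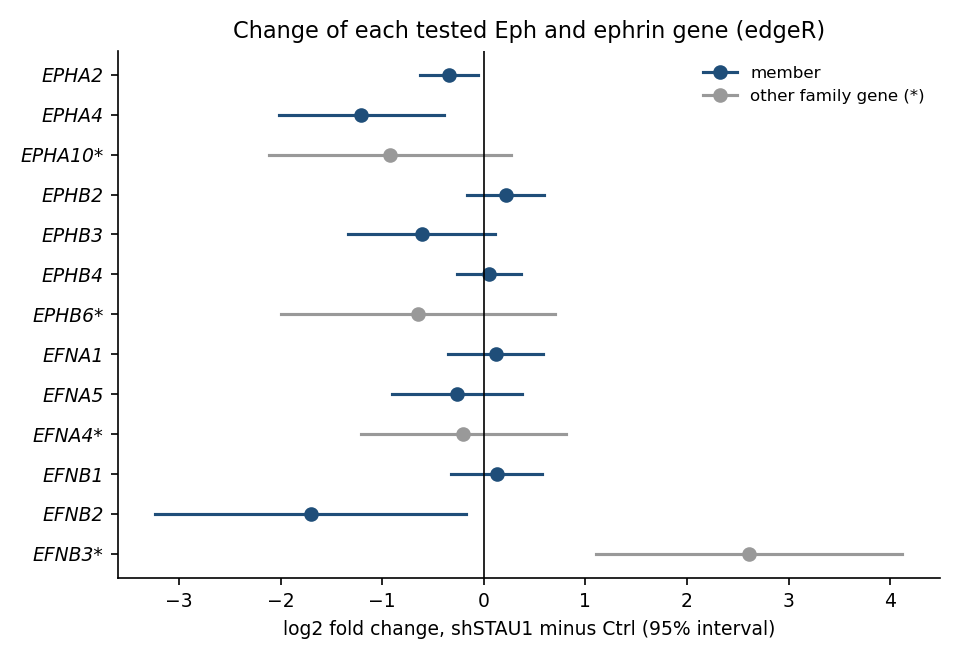
Log2 fold change of shSTAU1 against Ctrl with its 95% interval for each tested Eph and ephrin gene, blue for the members and grey for other family genes. The intervals of EPHA2, EPHA4 and EFNB2 lie below 0 and that of EFNB3 lies above it, and those of the other genes cross 0.

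The 12 other Eph and ephrin genes were listed to complete the family. Of these, 4 passed the filter, EPHA3, EPHA7 and EPHA8 were at 0 counts in all libraries, and EPHA5, EPHA6, EPHB1, EFNA2 and EFNA3 had at most 7 counts in a library. By edgeR without a replicate term 0 of the 4 were called, with 1, EFNB3, at an unadjusted p under 0.05. DESeq2 called EFNB3 and limma-voom called 0. Over all tested genes these shares were 2.6% by edgeR, 24.5% at an unadjusted p under 0.05, 10.1% by DESeq2 and 2.54% by limma-voom. EFNB3, the third ephrin-B ligand, known from the nervous system (chr17:7705202-7711378, plus strand), had 22 and 8 counts in Ctrl and 139 and 55 counts in shSTAU1. Its levels were 0.654 and 0.244 CPM in Ctrl and 3.99 and 1.56 CPM in shSTAU1, and the groups did not overlap. The log2 fold change was 2.61 (SE 0.65, 95% interval 1.11 to 4.12, unadjusted p = 0.0042, adjusted p = 0.0712 by edgeR), and over other scalings, filters and models without a replicate term the adjusted p ran from 0.00436 to 0.159. Taken by replicate number, which no source ties to a shared culture or day, the ratios of shSTAU1 to Ctrl were 6.10 and 6.37 for EFNB3. Such ratios were 0.814 and 0.770 for EPHA2, 0.289 and 0.604 for EPHA4, and 0.145 and 0.396 for EFNB2. Among the EphB members they were 1.19 and 1.13 for EPHB2, 0.728 and 0.603 for EPHB3, and 1.14 and 0.941 for EPHB4.

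Within the ephrin-B sum the share of EFNB2 was lower and that of EFNB3 higher in shSTAU1, with no overlap between the groups and EFNB3 at 2.69% and 1.03% in Ctrl and 13.2% and 6.88% in shSTAU1. EFNB1 made up the bulk of the sum in every library. In shSTAU1, replicate 1 was below replicate 2 for EPHA2, EPHA4, EPHB3 and EFNB2 and above it for EPHB2, EPHB4, EFNA1, EFNA5, EFNB1 and EFNB3. The Ctrl libraries differed in the same direction for 8 of these 10 genes and in the opposite one for EPHA4 and EPHB4.

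The remaining tested family genes were scarce. EPHA10, a kinase-inactive receptor, had 40 and 41 counts in Ctrl and 29 and 16 in shSTAU1 (log2 fold change −0.92, adjusted p = 0.304 by edgeR). EPHB6, also kinase-inactive, had 63 and 31 counts in Ctrl and 44 and 19 in shSTAU1 (log2 fold change −0.65, adjusted p = 0.524 by edgeR). EFNA4 had 38 and 37 counts in Ctrl and 35 and 34 in shSTAU1 (log2 fold change −0.20, adjusted p = 0.811 by edgeR), and 189 of its 1263 exonic bases are shared on the same strand with a readthrough gene listed at 0 counts, so its count is uncertain.

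The fold changes of the family were recomputed under other processing and with each library left out. EPHA2 stayed between −0.41 and −0.27 with a library left out, EPHB2 between 0.06 and 0.36, EPHB3 between −0.87 and −0.30 and EFNA5 between −0.49 and −0.06, so these kept their sign. EPHB4, EFNA1 and EFNB1 turned to −0.030, −0.085 and −0.079 without shSTAU1 replicate 1, so no direction is given for them. EFNB3 stayed between 1.79 and 3.48.

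**Figure D4:**
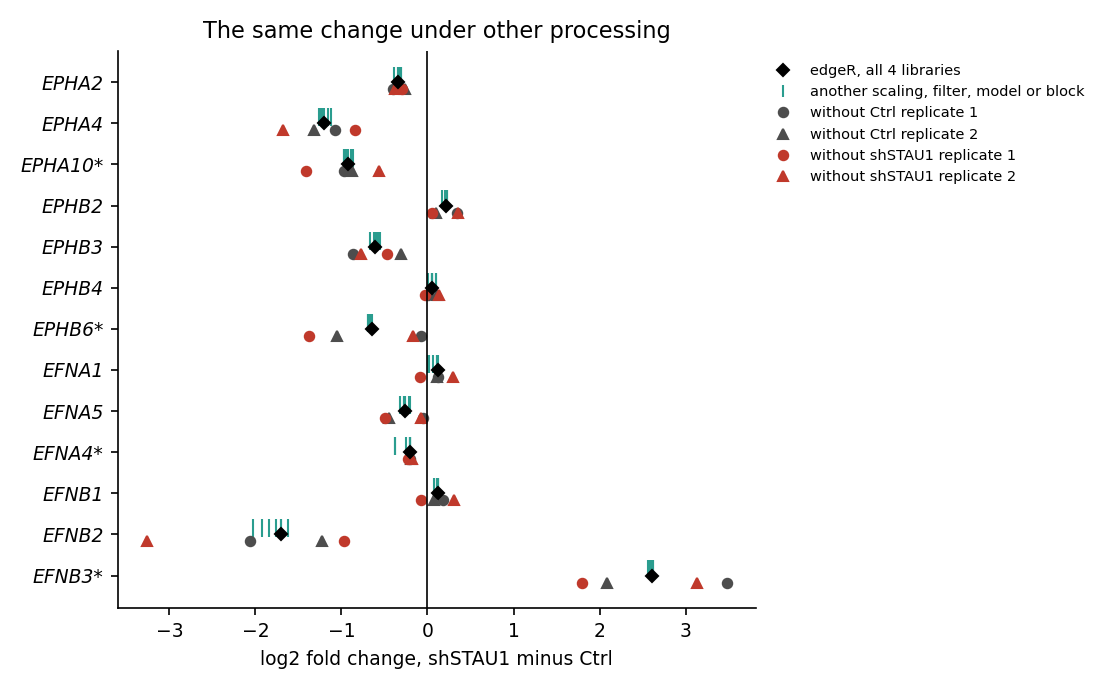
Log2 fold change of each tested Eph and ephrin gene with all 4 libraries (diamonds), under other scalings, filters, models or a replicate block (bars), and with 1 library left out (circles and triangles). Leaving out a shSTAU1 library moves EFNB2 between −3.26 and −0.97 and EPHA4 between −1.68 and −0.85.

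Genes around the receptors and ligands were counted in 4 lists taken from textbook roles in Eph and ephrin signalling. Of 52 listed genes 49 were tested. At an adjusted p under 0.05 by edgeR without a replicate term 0 of them were called, against 2.6% of all tested genes. That fit is meant by edgeR for each list below. At an unadjusted p under 0.05, 9 were higher and 4 lower in shSTAU1, against 24.5% of all tested genes in either direction (1850 higher and 1659 lower), and the median log2 fold change of the 49 was 0.06, against 0.01 for all tested genes. DESeq2 called 7 of the 49, 5 higher and 2 lower, against 10.1% of all tested genes, and limma-voom called 0, against 2.54%.

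Among 16 tested adaptors and phosphatases 0 were called by edgeR or limma-voom, against 2.6% and 2.54% of all tested genes. DESeq2 called 1 (RASA1), against 10.1% of all tested genes. At an unadjusted p under 0.05 by edgeR, 1 was higher and 2 lower (24.5% of all tested genes in either direction), and the median was 0.04. RASA1, the Ras GTPase-activating protein that docks on EphB receptors, was at 325.7 ± 11.2 CPM in Ctrl and 241.0 ± 1.42 CPM in shSTAU1 (log2 fold change −0.43, adjusted p = 0.0834 by edgeR). SH2D3A had a log2 fold change of −0.49 (adjusted p = 0.166 by edgeR), and the adaptor GRB2 one of 0.37 (adjusted p = 0.168 by edgeR).

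Among 14 tested kinases and GTPases 0 were called by edgeR or limma-voom, against 2.6% and 2.54% of all tested genes. DESeq2 called 2 (CDC42 among them), against 10.1% of all tested genes. At an unadjusted p under 0.05 by edgeR, 4 were higher and 0 lower (24.5% of all tested genes in either direction), with a median of 0.09. CDC42, a GTPase of filopodia, was at 73.1 ± 1.60 CPM in Ctrl and 108 ± 8.57 CPM in shSTAU1 (log2 fold change 0.57, adjusted p = 0.0654 by edgeR). The Src-family kinase YES1 had a log2 fold change of 0.42 (adjusted p = 0.147 by edgeR).

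Among 8 tested partners of ephrin-B reverse signalling 0 were called by edgeR or limma-voom, against 2.6% and 2.54% of all tested genes. DESeq2 called 2 (GRIP1 and SDCBP), against 10.1% of all tested genes. At an unadjusted p under 0.05 by edgeR, 3 were higher and 0 lower (24.5% of all tested genes in either direction), and the median was 0.10. GRIP1, a PDZ scaffold that binds the ephrin-B tail, was at 8.92 ± 1.17 CPM in Ctrl and 16.4 ± 1.56 CPM in shSTAU1 (log2 fold change 0.88, adjusted p = 0.0654 by edgeR). SDCBP, or syntenin, another PDZ partner, was at 82.9 ± 13.3 and 127 ± 17.4 CPM (log2 fold change 0.61, adjusted p = 0.0819 by edgeR), and GIT1 had a log2 fold change of 0.39 (adjusted p = 0.127 by edgeR).

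Among 11 tested proteases and ubiquitin ligases 0 were called by edgeR or limma-voom, against 2.6% and 2.54% of all tested genes. DESeq2 called 2 (ADAM10 and APH1A), against 10.1% of all tested genes. At an unadjusted p under 0.05 by edgeR, 1 was higher and 2 lower (24.5% of all tested genes in either direction), and the median was 0.03. ADAM10, the sheddase that cuts ephrins and Eph receptors at cell contacts, was at 439 and 349 CPM in Ctrl and 287 and 204 CPM in shSTAU1, with no overlap (log2 fold change −0.68, SE 0.19, adjusted p = 0.0893 by edgeR). The gamma-secretase subunits APH1A and PSEN2 had log2 fold changes of 0.57 (adjusted p = 0.0917 by edgeR) and −0.38 (adjusted p = 0.199 by edgeR).

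**Figure D5:**
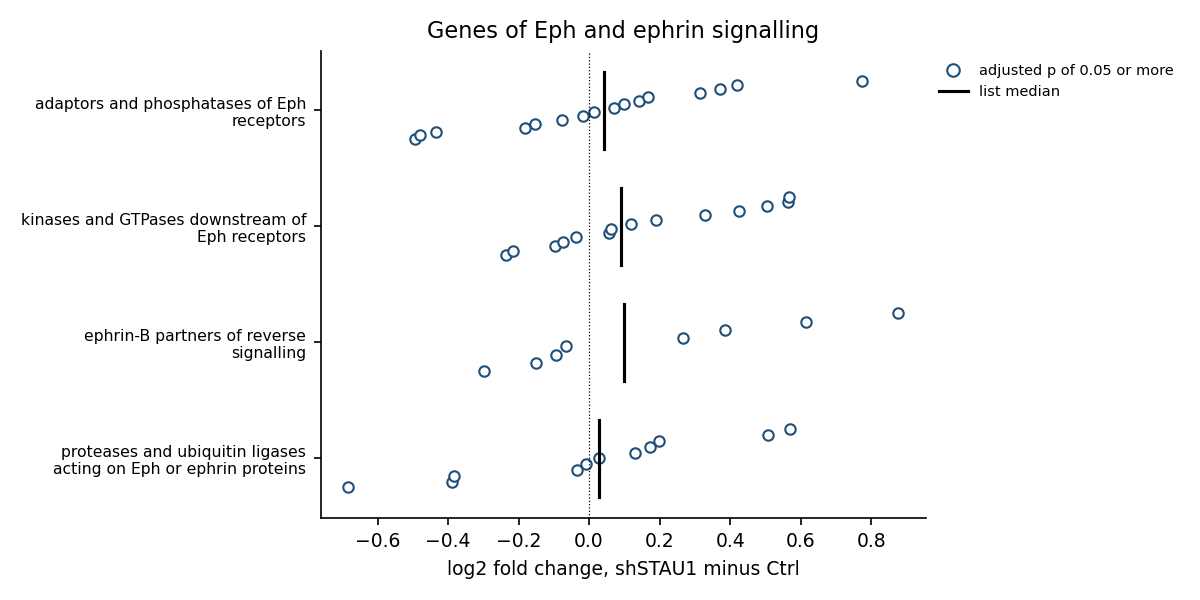
Log2 fold change of shSTAU1 against Ctrl for the 49 tested genes of 4 Eph and ephrin signalling lists, 1 point a gene, with a black line at each list's median. Every point has an adjusted p of 0.05 or more by edgeR without a replicate term, where 2.6% of all tested genes lie under 0.05. The medians run from 0.03 to 0.10.

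Profiles over the 4 libraries were compared for the member receptor and the member ligand with the log2 fold change furthest from 0, as the distance between centred log2 CPM values. The genes nearest to EPHA4 were RASSF9, GALNT10 and RAB1AP1, at distances of 0.11, 0.11 and 0.12. Of these, RASSF9 and RAB1AP1 had at most 82 and 38 counts in a library. The genes nearest to EFNB2 were DRICH1, at 0.23, and ENSG00000254851 and ENSG00000213058, at 0.28 and 0.30, and these 3 had at most 59 counts in a library.

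STAU1 is known to act on mRNAs through their 3′ untranslated regions, and the word AAGAGAA or its neighbour in sequence AGAGAAA, which an earlier analysis of these counts had named, was looked up there in 1 annotated transcript a gene (GENCODE 29). Because the pair of words came from these counts, their presence is a description and no support. Of the 9 tested members 2 held a word (22.2%), against 34.4% of 11342 tested genes whose 3′ region passed a short minimum length. Of 2172 genes with at least 3000 bases of it, 75.6% held a word. The tested members of that length were EPHA4, EFNA5 and EFNB2, and of these EPHA4 and EFNA5 held one. The sites are shown with 10 bases on each side and the word in capitals, all on the minus strand, for EPHA4 at chr2:221419002-221419028 and for EFNA5 at chr5:107380514-107380540 and chr5:107379386-107379412.
EPHA4: ttgaataagtAGAGAAAatcatcaata
EFNA5, first site: gtgtgaaaacAGAGAAAactacaggtt
EFNA5, second site: atgttaaaaaAAGAGAAggtcgcatta
EFNB2, with a 3′ region of 3295 bases, and EPHA2, with 878 bases, held none.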

How the data were processed

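RNA of 2 Ctrl and 2 shSTAU1 samples was sequenced after library preparation with the TruSeq RNA Exome kit, which captures exons with probes, so counts weigh towards targeted exons. The authors deposited whole-number counts per gene without normalization. The submitters' processing notes name Partek and hg38, with no version or role, and the aligner, the counting program and its strand setting are not given in the sources used here. The table holds 67008 rows, of which 45 copies of pseudoautosomal genes were at 0 and were left out, and no sample column was unmapped (0).

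The count analysis used edgeR 4.0.16 under R 4.3.3. The filterByExpr function kept the genes to test (14303, holding 99.9% of counts), libraries were scaled by TMM, and groups were compared with the two-sided quasi-likelihood test over all kept genes, p-values adjusted by Benjamini-Hochberg and a call made under 0.05. The biological coefficient of variation was 19.1%, and no library repeated another, since replicates were further apart than sampling noise (chi-square divided by its degrees of freedom, 25.2 in Ctrl and 60.0 in shSTAU1). The code was run on simulated counts with 200 changed genes. These were drawn with less spread than the libraries here, so the run checks the code and not its power on these data. Alternatives were DESeq2 1.42.0, limma-voom (limma 3.58.1), library-size scaling, no filter, a replicate block, a correction for length and GC content (mgcv 1.9.3), other thresholds and leaving out each library. Positions, lengths and 3′ regions came from GENCODE 29 (GRCh38), which may not be the authors' release, and promoters from RefSeq (GRCh38.p14).

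The members and lists were chosen with earlier results of these data known. Named are the 10 members, other family genes that passed the filter, STAU1, the called genes of each signalling list with up to 3 of smallest unadjusted p, and the 3 nearest profiles of 1 receptor and 1 ligand. A list of signalling genes and a gene of another list are not reported here. Marker genes with a call or without overlap between the groups, genes at 0 and overlapping genes were added to the text once their values were known. Intervals and floors of 3 counts cover counting error only where they are stated as such.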

Additional observations from a re-analysis of the deposited data

How the results depend on the processing

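Of 14303 genes 372 passed the threshold. DESeq2 gave 1449 (773 higher, 676 lower), no filter 11 (2 and 9), the length and GC correction 171 (58 and 113), an adjusted p under 0.10 1585, and the criterion of 1.5-fold and unadjusted p under 0.05 gave 2098. Library-size scaling gave 404 (132 and 272) and limma-voom 363. With a library left out, where the lone sample was assumed to vary like the other group, the count ran from 0 to 2780. It was 0 without Ctrl replicate 1 (1502 genes at an unadjusted p under 0.05), 64 without Ctrl replicate 2, 2780 without shSTAU1 replicate 1 and 2203 without shSTAU1 replicate 2.

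Of the members 0 passed by edgeR, DESeq2 called 1 (EPHA4), an adjusted p under 0.10 took 1 (EPHA4), and the 1.5-fold criterion took 2 (EPHA4 and EFNB2). With a library left out the count ran from 0 to 2, with 2 (EPHA4 and EFNB2) without shSTAU1 replicate 2. Library-size scaling, no filter, limma-voom and the length and GC correction gave 0, with 3 members at an unadjusted p under 0.05 in each. Over all genes tested there were, in that order, 3476 of 14303, 3582 of 24804, 3493 of 14303 and 3345 of 14159 under it. With a library left out, STAU1 stayed between −2.60 and −2.58 and was not called without Ctrl replicate 1 (adjusted p = 0.490), EPHB4 ran from −0.030 to 0.13, EFNA1 from −0.085 to 0.30 and EFNB1 from −0.079 to 0.30, each below 0 without shSTAU1 replicate 1.

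The replicate numbers are shared by the groups, but no source says that they mark a shared culture or day, and the deviations of same-numbered libraries from their group means correlated at 0.27. The replicate block gave 4087 genes (2208 higher, 1879 lower), against 2864 with the block and the length and GC correction (1496 and 1368). With either, 3 members passed by edgeR, EPHA2, EPHA4 and EFNB2, at adjusted p values of 0.0122, 0.000352 and 2.34e-06 with the block alone. With the block and the correction these values were 0.0429, 0.0315 and 0.0137. The block lowers p-values widely, and STAU1 was at 3.28e-94 with the block alone against 0.00103 without it by edgeR. EFNB3 passed too (7.58e-07 and 0.00442), as did 17 and 15 of the 49 signalling genes. Over all tested genes it was 4087 of 14303 with the block and 2864 of 14159 with the block and the correction. All 11 named signalling genes were among those that passed. They were picked by small unadjusted p in these same libraries, so their passing is no support.

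Over the single genes named other than STAU1 and these alternatives, 240 values kept direction and side of the threshold, 69 moved past it and 3 reversed. At 2 libraries a group and under 200 counts a library, as for EPHA4, EPHB3 and EFNB2, the test leaves intervals over 1 log2 unit wide.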
